A study of Homo sapiens with 24 samples.

Results

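The genes described here encode the proteins of the cytosolic ribosome. They were chosen by symbol, as RPL or RPS followed by a number, with RPLP0, RPLP1, RPLP2 and RPSA added, pseudogenes left out and a sum of at least 2400 counts required over all libraries. This gave 77 of the 60683 genes in the table, 31 for the small subunit and 46 for the large subunit, and all 77 were among the 16196 genes tested. The symbols of 81 genes fitted the pattern. RPS10 with 1717 counts in all, RPL3L with 323, RPL39L with 2 and RPL10L with 0 lay below the minimum, while RPL36A with 3077 and RPL17 with 7552 lay just above it.

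The 24 libraries were made from poly(A) RNA of HepG2, a cell line from a human hepatocellular carcinoma. All cells carried a CRISPR/Cas9 knockout of the glucocorticoid receptor gene NR3C1 (HepG2 GR-/-) and a Ty1-tagged receptor put back with a doxycycline-inducible pseudotyped lentivirus. The receptor was K154R, which cannot be acetylated at that lysine, K154Q, which mimics the acetylated form, or WT (genotype labels sg18+K154R, sg18+K154Q and sg18+WT). Each genotype was given 1 µM dexamethasone (dex, a synthetic glucocorticoid) or ethanol vehicle for 6 h, which made 6 groups of 4 replicates: K154R dex, K154R vehicle, K154Q dex, K154Q vehicle, WT dex and WT vehicle. Every group had received 0.3 to 1 µg/mL doxycycline for 24 h and charcoal-stripped medium for a further 24 h. Receptor expression thus came from an inducible transgene and not from the gene's own promoter, and the sources used here do not say whether the knockout line is a single clone. The labels describe the 4 replicates as 2 experiments, each with 2 separate transductions, without linking these to replicate numbers. Library totals were between 23863672 and 42072021 counts. All 11 hepatocyte markers reached a median of at least 1 CPM (counts scaled to a common library size, with TMM factors here and throughout), as did 1 of 3 endothelial, 2 of 4 fibroblast and 0 of 3 leukocyte markers. Of 3 further genes of mature hepatocytes, often low in cell lines, 1 did so. CPS1 had a median of 76.1 CPM, CYP2E1 0.30 and CYP3A4 0.26. Genes of the mitochondrial genome took 7.61% to 13.2% of the counts.

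A ribosome is built from ribosomal RNA and one copy of most ribosomal proteins, so cells make these proteins in step with each other. Most of their mRNAs begin with a C followed by a run of pyrimidines, the terminal oligopyrimidine or TOP start, through which the mTORC1 kinase and the RNA-binding protein LARP1 control their translation and stability. The glucocorticoid receptor is a ligand-activated transcription factor that binds DNA after hormone enters the cell. Counts of bulk mRNA show the level of the transcripts, not their translation, and cannot tell fewer cells with a transcript from less of it per cell.

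The starts of these genes are shown first, because the TOP tract is what most members share at the sequence level and the rule did not use it. RefSeq starts on GRCh38.p14 were found for 62 of the 77 genes, with 77 starts in all. A tract of at least 5 pyrimidines, counted from a C within 5 bases of the start, was present at 56 of the 77 starts (72.7%). It was present at 21.1% of the 35116 starts in the table. Bases before that C were not examined, so a tract can be the end of a longer run, as for RPL21, RPL14 and RPL36A below. With the C exactly at the start, the shares were 58.4% of member starts and 4.07% of all starts. By gene, 52 of 62 had such a tract at a start. The 10 that did not were RPL15, RPL17, RPL27, RPL6, RPL9, RPS15, RPS26, RPS27L, RPS29 and RPS4X. Annotated starts were taken as given, and pyrimidine runs farther from them, as in the RPL17 window, were not counted. These 10 mRNAs may therefore still have a TOP start. The windows below run from 30 bases before the start to 20 bases from it on, with the tract in capitals. They show the 4 members with the smallest p for the averaged dex response (RPS3A, RPL21, RPL14 and RPL22), RPLP0 of the ribosomal stalk, and members that varied unlike the rest or lack the tract (RPL36A, RPL17, RPS27L and RPS29).
RPS3A: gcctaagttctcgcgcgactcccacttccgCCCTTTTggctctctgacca
RPL21: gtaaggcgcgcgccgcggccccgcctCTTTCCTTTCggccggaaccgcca
RPL14: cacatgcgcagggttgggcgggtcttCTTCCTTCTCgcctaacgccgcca
RPL22: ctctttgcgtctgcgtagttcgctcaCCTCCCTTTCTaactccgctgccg
RPLP0: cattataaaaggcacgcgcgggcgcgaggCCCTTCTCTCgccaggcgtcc
RPL36A: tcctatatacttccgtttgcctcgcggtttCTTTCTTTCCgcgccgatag
RPL17: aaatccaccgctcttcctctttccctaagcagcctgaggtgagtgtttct
RPS27L: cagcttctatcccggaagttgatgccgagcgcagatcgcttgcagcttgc
RPS29: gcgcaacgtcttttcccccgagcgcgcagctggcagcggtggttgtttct

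On GRCh38.p14 these windows lie at chr4:151099598-151099647 (RPS3A, plus strand), chr13:27251528-27251577 (RPL21, plus), chr3:40457309-40457358 (RPL14, plus) and chr1:6199576-6199625 (RPL22, minus). The others lie at chr12:120201092-120201141 (RPLP0, minus), chrX:101390981-101391030 (RPL36A, plus), chr18:49492446-49492495 (RPL17, minus), chr15:63157458-63157507 (RPS27L, minus) and chr14:49598691-49598740 (RPS29, minus). All 9 span an annotated transcription start, promoter before it and first exon after it. Motifs were counted on both strands of the windows from 250 bases before to 50 bases after each start. CCGGAA, a core of ETS-family sites, was in 51.9% of member starts and 17.2% of all starts. CTTTCC was in 46.8% and 26.3%, and GGGCGG, the GC box, was in 54.5% and 45.0%. TATAAA was in 6.49% and 11.5%. The half-site of the glucocorticoid receptor, AGAACA, was in 14.3% of member starts and 14.8% of all starts. CTTTCC can overlap CCGGAA read on the other strand, and these matches are letters in a window, not sites.

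The genes are spread over 21 chromosomes, with 12 on chromosome 19 and 4 on X. Between their ends and on the same strand, 28 of the 77 (36.4%) hold snoRNA genes, 60 in all by GENCODE v29, with scaRNA genes counted too. This was so for 223 of 12662 tested protein-coding genes (1.76%). Introns and exons were not told apart. snoRNAs guide the modification of ribosomal RNA, and host genes such as RPL13A, RPL7A and RPL4 carry several of them. A poly(A) library does not measure the snoRNAs themselves.

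Ribosomal protein mRNA made up 3.66% of the counts in K154R dex replicate 1 (exact 95% binomial interval 3.65% to 3.66%) and 5.88% in WT vehicle replicate 4 (5.88% to 5.89%), the lowest and highest of the 24 libraries. The share averaged 4.68% ± 0.87 (SD, n = 4 in each group) in K154R dex and 4.92% ± 0.72 in K154R vehicle. It averaged 4.67% ± 0.53 in K154Q dex and 5.03% ± 0.69 in K154Q vehicle, and 4.48% ± 0.37 in WT dex and 4.81% ± 0.74 in WT vehicle. The mean was lower with dex in each genotype, and in each the dex and vehicle libraries overlapped. Intervals cover counting error only, which is far smaller than the spread between replicates.

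Levels between genes were compared per length, as CPM divided by the median coding transcript length in kb (CPM per kb), averaged over 24 libraries. The median of the 77 genes was 785 CPM per kb, and 53 of them lay within 2-fold of it. At the top stood RPLP1 with 2151 ± 261 (SD, n = 24), RPL37A with 2069 ± 273, RPLP0 with 1901 ± 265, RPS2 with 1743 ± 253 and RPS19 with 1724 ± 259. RPLP0, RPLP1 and RPLP2 form the stalk that recruits elongation factors, while RPS2 lies near the mRNA entry site and RPS19 is the protein mutated most often in Diamond-Blackfan anaemia. These 5 are not ordered beyond their spread, and the order depends on the length used: by the principal transcript RPLP1 ranked 35 and RPL37A 62 of 77.

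Among the lowest stood RPL36A with 5.86 ± 1.27 CPM per kb, RPL17 with 14.0 ± 1.57, RPL39 with 44.5 ± 6.66 and RPS26 with 96.9 ± 12.6. RPL36A and RPL17 were the 2 lowest of all, also by the principal transcript. By that length RPS26 ranked 66 and RPL39 72, while RPS27L ranked 75, so the order of the others depends on the length used. These low values are uncertain, because the sources used here do not give how reads with several matches were counted. RPL17 shares 32.7% of its exon bases on the same strand with the readthrough gene RPL17-C18orf32 and snoRNA genes, and RPL36A shares 8.40% with RPL36A-HNRNPH2. Rows of pseudogenes named after RPL36A summed to 61.9% of its own counts and those of RPL17 to 15.7%, whereas all 1316 pseudogene rows of the 77 genes summed to 0.572% of their counts.

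The 77 genes varied together from library to library. After subtraction of the group means, 1 principal component held 87.1% of their variation in log2 CPM. A gene's deviations had a correlation above 0.9 with the median of the other members for 65 of 77 genes, over 24 libraries. Among the 16119 other genes tested, 212 (1.32%) reached 0.9 with the member median; these points share library and scaling factor. The SD within groups had a median of 0.21 (log2) for the members, against 0.19 for all genes, and fell to 0.06 once the member median of each library was taken away.

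**Figure D1:**
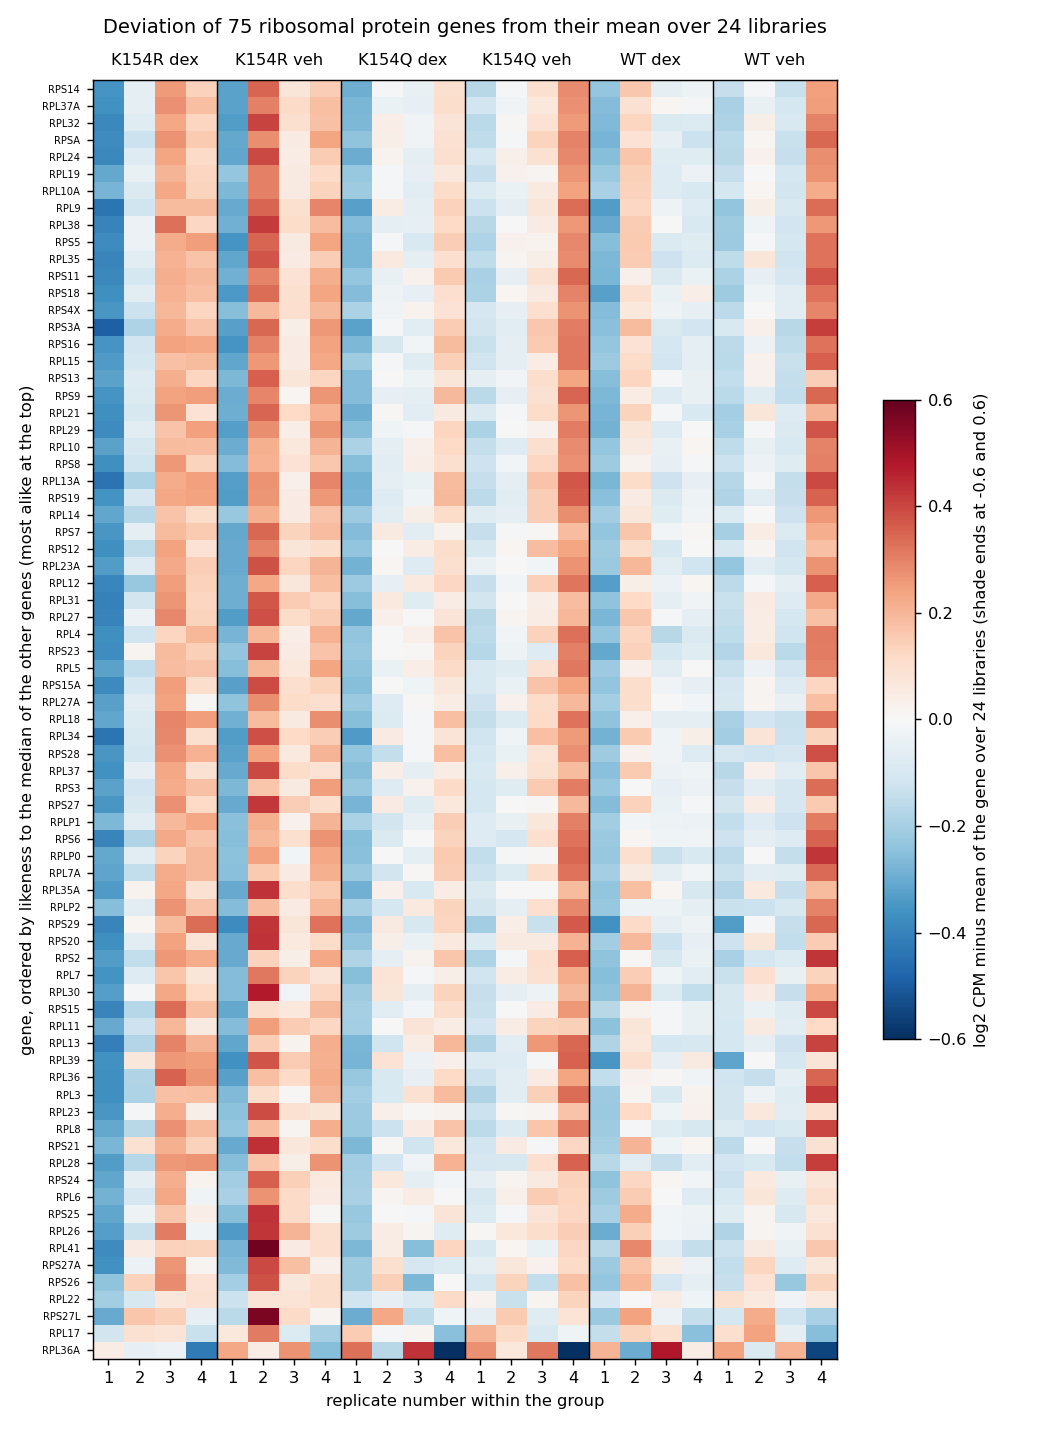
Deviation of 75 of the 77 genes (rows) in each of the 24 libraries (columns, grouped, with replicate numbers below) from the gene's mean over all libraries, in log2 CPM; red is higher and blue lower. Whole columns share a colour, from a member median of -0.35 in K154R dex replicate 1 to 0.30 in K154R vehicle replicate 2, and the rows at the foot (RPL22, RPS27L, RPL17, RPL36A) depart from the rest.

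The 4 genes at the foot of that plot were among those that tracked the other members least. RPL36A had r = -0.63 with the median of the others, RPL17 -0.16, RPS27L 0.56 and RPL22 0.76. RPL36A and RPL17 had 73 to 197 and 205 to 436 raw counts per library. RPS27L and RPL22 had 2369 to 5204 and 2456 to 4146 counts.

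RPL36A encodes a large-subunit protein and stood at 4.07, 3.82, 3.86 and 2.92 CPM in K154R dex libraries, against 4.64, 4.08, 4.77 and 3.30 CPM in K154R vehicle libraries (replicates 1 to 4). It stood at 4.97, 3.51, 5.35 and 2.40 CPM in K154Q dex libraries, against 4.79, 4.13, 4.92 and 2.55 in K154Q vehicle libraries. In WT dex libraries the values were 4.56, 3.21, 5.53 and 4.07 CPM, against 4.69, 3.72, 4.58 and 2.67 in WT vehicle libraries. Replicate 4 was the lowest of its group except in WT dex, where replicate 2 was, and dex and vehicle overlapped in each genotype.

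RPS27L, a paralogue of RPS27, stood at 84.6, 117, 115 and 101 CPM in K154R dex libraries, against 93.1, 154.3, 113 and 105 CPM in K154R vehicle libraries. It stood at 85.0, 123, 94.0 and 102 CPM in K154Q dex libraries, against 101, 116, 99.1 and 110 in K154Q vehicle libraries. In WT dex libraries the values were 89.4, 123, 102 and 94.5 CPM, against 96.9, 122, 96.0 and 91.2 in WT vehicle libraries. Replicate 2 was the highest of its group in all 6 groups, which was not so for the member median. RPL22, which binds viral and cellular RNA besides its place in the large subunit, had the narrowest range of these, 87.7 to 111 CPM over 24 libraries, with an SD within groups of 0.10 (log2).

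**Figure D2:**
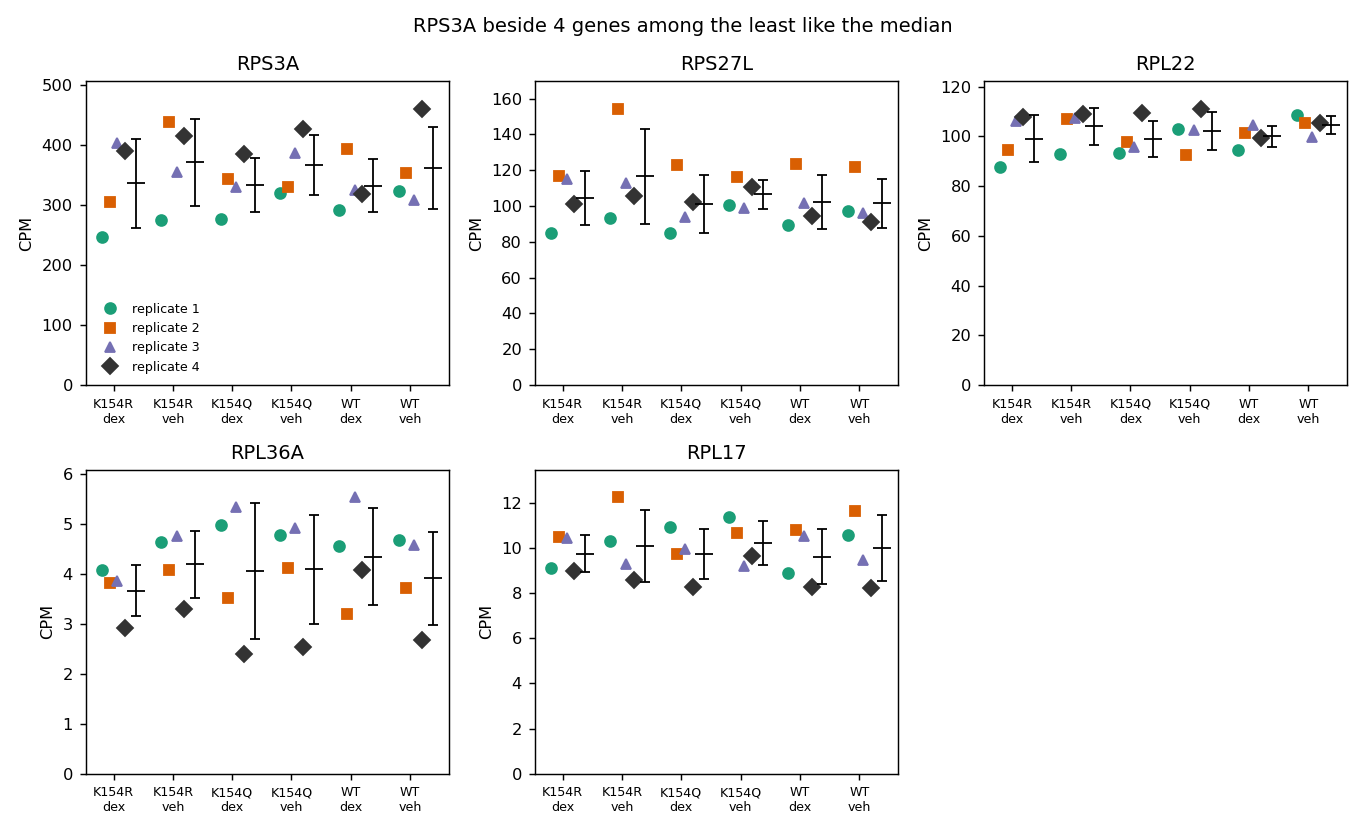
CPM of RPS3A and of 4 genes among the least like the member median, by group; each symbol is 1 library, its shape gives the replicate number, and the bar is the mean with SD of 4. RPS3A follows the common pattern with replicate 1 lowest in 5 of 6 groups, RPS27L is highest in replicate 2 of every group, and RPL36A and RPL17 lie below 14 CPM.

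The common variation differed between replicate numbers, with replicate 1 lowest and no fixed order among the others. Library medians of the members' deviations ran from -0.35 to -0.12 in number 1 and from -0.08 to 0.30 in number 2. They ran from -0.10 to 0.23 in number 3 and from -0.04 to 0.28 in number 4. Replicate 2 was highest for most genes in WT dex (71 of 77) and K154R vehicle (58), and replicate 3 in K154R dex (60). Replicate 4 was so in the other groups (62 to 72). Numbers were compared with the groups held fixed, by an F test over the 4 numbers in edgeR's quasi-likelihood fit, a test chosen after the data were seen. It called 75 of the 77 genes at an adjusted p under 0.05, and 63.4% of all genes tested (10276), so differences between numbers were frequent throughout these libraries. The members' median difference from replicate 1 was 0.29 in replicate 2, 0.27 in replicate 3 and 0.40 in replicate 4 on the log2 scale, against 0.00, 0.00 and 0.01 for all genes. The share of counts averaged 4.01% ± 0.23 in the 6 libraries of number 1, 4.76% ± 0.39 in number 2, 4.88% ± 0.44 in number 3 and 5.41% ± 0.43 in number 4 (SD, n = 6 each). Replicate 1 was the lowest library of its group for 57 of the 77 genes in all 6 groups. Counts of lowest and highest libraries were made for the members only, so the share over all genes is not known.

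RPS29, a small zinc-binding protein of the small subunit head, had the smallest p of the members, with log2 differences from replicate 1 of 0.43, 0.30 and 0.57 in replicates 2, 3 and 4 (edgeR adjusted p = 2.1e-06). RPL29, the heparin-binding large-subunit protein, had 0.32, 0.28 and 0.49 (adjusted p = 3.6e-06 by edgeR). RPS27L differed otherwise, with 0.46, 0.17 and 0.14 (adjusted p = 4.9e-06 by edgeR). RPL36A had -0.30, 0.06 and -0.63 (adjusted p = 2.5e-05 by edgeR) and RPL17 had 0.10, -0.05 and -0.24 (0.0022), so both were lower in replicate 4 than in replicate 1. RPL22, with 0.05, 0.09 and 0.15 (0.052), was not called. In 73 of the other genes, RPS29, RPL29 and RPS27L included, every difference from replicate 1 was positive, between 0.13 and 0.57. The same count was not made over all genes tested.

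Other genes of ribosome production moved less with the number, or otherwise. The 7 ribosomal protein genes outside the symbol pattern, among them FAU, RACK1 and the paralogue RPL22L1, had medians of 0.22, 0.21 and 0.19 in replicates 2, 3 and 4, with 6 of 7 called. The mitochondrial ribosomal protein genes, whose ribosomes translate only mitochondrial mRNAs, had 0.20, 0.11 and 0.15, with 63 of 77 called. The 18 measured mRNAs with TOP starts that encode other proteins, such as translation factors, had 0.06, 0.11 and 0.12, with 16 called. The 39 genes of rRNA processing and ribosome assembly had 0.02, 0.03 and -0.08, with 28 called. The 15 genes of RNA polymerase I and its factors, which make the rRNA precursor, had 0.01, 0.00 and -0.10, with 12 called. The 20 genes of the mTORC1 pathway and MYC had -0.11, 0.06 and 0.07, with 16 called, and the 6 genes of the 5S RNP and of ribosomal stress sensing had 0.06, 0.02 and 0.05, with 4 called. The share called was 66.7% to 88.9% in these lists, against 63.4% of all genes tested. Differences between these lists were not tested. The mitochondrial genome's share of counts was 10.3% to 11.5% in libraries of number 1 and 7.61% to 12.2% in those of number 4; its part in the result was not tested.

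**Figure D3:**
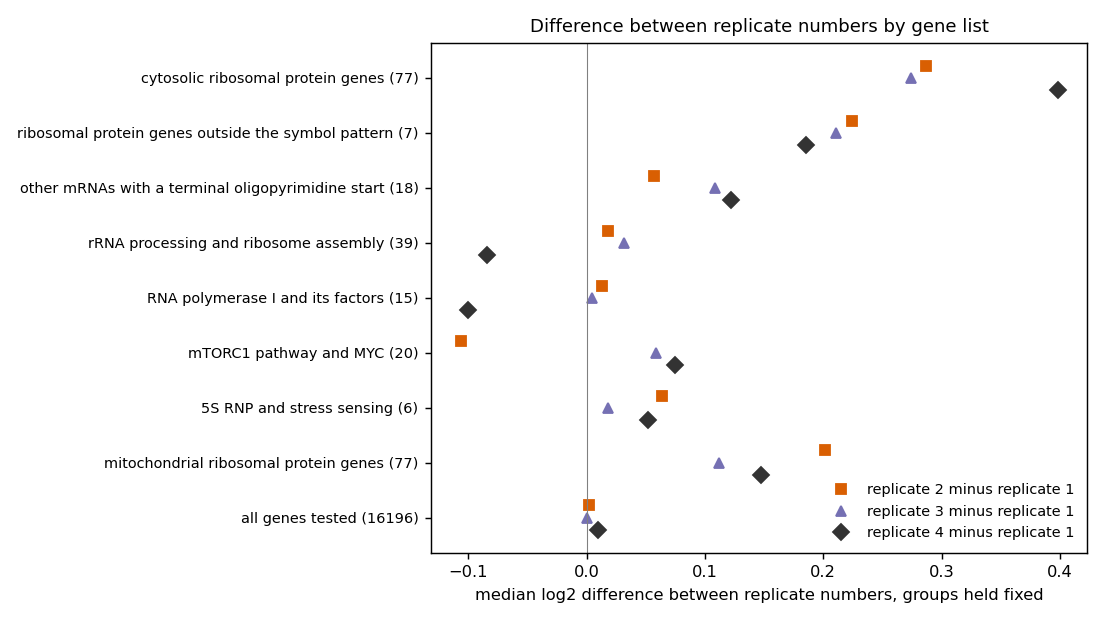
Median log2 difference of replicates 2, 3 and 4 from replicate 1 with the groups held fixed, for 8 gene lists and all genes tested (number of genes in brackets). The cytosolic ribosomal protein genes lie farthest right at 0.27 to 0.40, and all genes tested lie at 0.00 to 0.01.

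The next comparison asked whether dex changed these mRNAs. Averaged over the genotypes, 76 of the 77 genes had a negative log2 fold change, with a median of -0.08, against a median of -0.01 and 52.3% negative among all genes tested. No member passed the test: edgeR's quasi-likelihood fit called 0 of 77 at an adjusted p under 0.05 and 0 at an unadjusted p under 0.05, against 1.06% and 7.01% of all genes tested, and DESeq2 called 0. That fit leaves out the replicate number. With the number as a block, edgeR called 685 of 16196 genes and 0 of the members. An unadjusted p under 0.05 in that edgeR fit was then reached by 12 of 77 members, against 16.9% of all genes. Because the 77 genes vary together, their signs are not independent of each other. Without the block, the fold changes had a median SE of 0.08, and the normal 95% intervals ran from a median lower end of -0.23 to a median upper end of 0.07.

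RPS3A, a small-subunit protein near the mRNA exit, had the smallest p. It stood at 246, 305, 404 and 390 CPM in K154R dex libraries, against 276, 439, 355 and 414 CPM in K154R vehicle libraries. It stood at 277, 344, 330 and 385 CPM in K154Q dex libraries, against 320, 330, 386 and 427 in K154Q vehicle libraries. In WT dex libraries the values were 291, 394, 326 and 319 CPM, against 324, 353, 308 and 461 in WT vehicle libraries. The dex and vehicle libraries overlapped in each genotype, and the averaged log2 fold change was -0.13 (SE 0.09, edgeR adjusted p = 0.87). RPL21 had -0.11 (SE 0.08), RPL14 -0.10 (SE 0.07) and RPL22 -0.06 (SE 0.04), all large-subunit proteins, each with an edgeR adjusted p between 0.87 and 0.88.

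**Figure D4:**
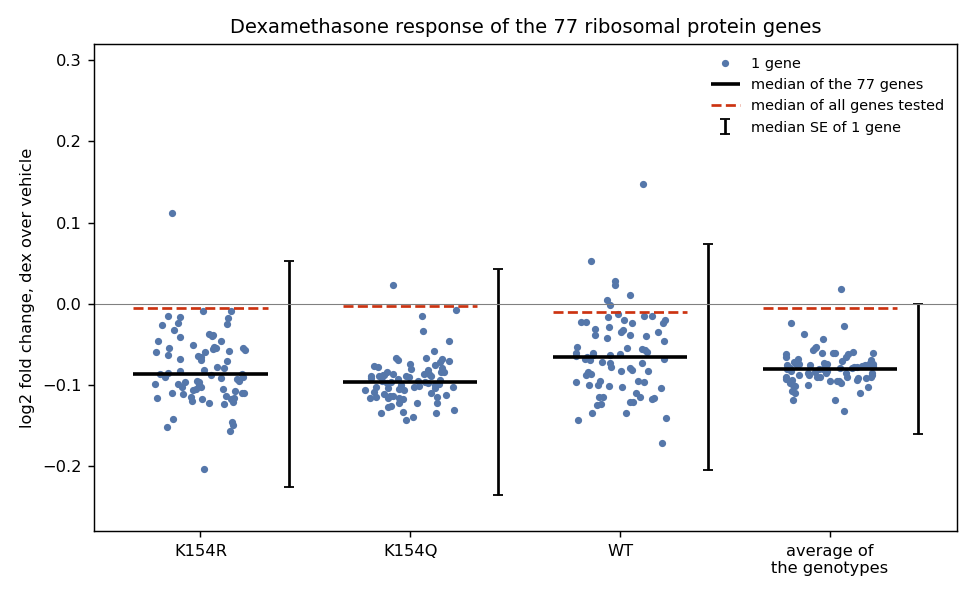
Log2 fold change of dex over vehicle for each of the 77 genes (points) in each genotype and averaged over them, with the median of the 77 genes (solid), the median of all genes tested (dashed) and the median SE of a single gene (bar). The medians lie at -0.09 in K154R, -0.10 in K154Q, -0.07 in WT and -0.08 on average.

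In K154R the median was -0.09, with 76 of 77 negative, against 51.9% of all genes. Of the members 0 were called and 0 had an unadjusted p under 0.05 in edgeR, against 0.309% and 3.19% of all genes. RPL26, a large-subunit protein near the exit tunnel, had -0.15 (SE 0.13), RPS24 had -0.12 (SE 0.11), RPS27L -0.16 (SE 0.14) and RPS25 -0.12 (SE 0.12). All 4 had an edgeR adjusted p of 1.0. The direction rested on 2 libraries: the median was 0.02 without K154R dex replicate 1 and 0.00 without K154R vehicle replicate 2. With the replicate number as a block, 200 genes in place of 50 were called in K154R, and 0 of the members.

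In K154Q the median was -0.10, with 76 of 77 negative, against 50.9% of all genes. The edgeR fit called 0 members and put 0 under an unadjusted p of 0.05, against 0.13% and 2.26% of all genes. RPL21 had -0.14 (SE 0.13), RPL26 -0.13 (SE 0.13), RPL27A -0.11 (SE 0.11) and RPS13 -0.12 (SE 0.12). The edgeR adjusted p was 1.0 for each of these. With each library left out in turn the median stayed negative, and reached -0.02 without K154Q vehicle replicate 4. The block on the replicate number called 117 genes in place of 21 in K154Q, and 0 of the members.

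In WT the median was -0.07, with 71 of 77 negative, against 52.8% of all genes. Here too 0 members were called and 0 had an unadjusted p under 0.05 in edgeR, against 0.161% and 3.22% of all genes. DESeq2 likewise called 0 members in each genotype. RPL8 had -0.14 (SE 0.14), RPL28 -0.14 (SE 0.15) and RPL3 -0.13 (SE 0.14). RPL8 and RPL3 lie near the peptidyl transferase centre of the large subunit. RPL36A had 0.15 (SE 0.23), RPS21 0.05 (SE 0.13), RPL39 0.03 (SE 0.15) and RPS25 0.02 (SE 0.12). All 7 had an edgeR adjusted p of 1.0. The direction rested on 1 library: without WT vehicle replicate 4 the median was 0.03 and 6 of 77 genes were negative. In none of the genotypes did dex and vehicle libraries separate without overlap for any member, while among all genes 0.63% separated lower and 1.33% higher in K154R, 0.574% and 1.27% in K154Q, and 0.617% and 1.41% in WT.

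Libraries of the same number gave differences of both signs. The member median of dex minus vehicle was -0.07, -0.38, 0.15 and -0.02 (log2) in replicates 1 to 4 of K154R. It was -0.12, 0.01, -0.10 and -0.16 in those of K154Q, and -0.09, 0.09, 0.05 and -0.31 in those of WT. Thus 8 of 12 were negative and 4 positive, and the widest of them, in K154R replicate 2 and WT replicate 4, were those whose vehicle library had the highest member median of its genotype.

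The receptor mutants were then compared with WT. Under vehicle, the median difference was 0.07 for K154R, with 6 of 77 negative (52.4% of all genes), and 0.05 for K154Q, with 6 of 77 negative (52.4% of all genes). Under dex it was 0.05 for K154R, with 5 of 77 negative (49.8% of all genes), and 0.01 for K154Q, with 31 of 77 negative (47.3% of all genes). In each of these, 0 members were called by edgeR or DESeq2, and 0% of all genes were called by edgeR. Blocking on the number gave 4 called genes in each vehicle comparison, 0 of them members; 2 members for K154R and 0 for K154Q then had an unadjusted p under 0.05, against 5.51% and 3.57% of all genes. Without the block, an unadjusted p under 0.05 in edgeR was reached by 0 members in each, against 1.36% of all genes for K154R and 1.02% for K154Q under vehicle, and 1.56% and 1.5% under dex. The comparisons of each mutant share their WT libraries. Their small medians changed sign without single libraries. Under vehicle this was K154R vehicle replicate 2 for K154R (-0.01), and K154Q vehicle replicate 4 (-0.03) or WT vehicle replicate 1 (-0.0006) for K154Q. Under dex it was K154R dex replicate 3 (-0.03) or WT dex replicate 1 (-0.0016) for K154R, and K154Q dex replicate 2, 3 or 4 or WT dex replicate 1 for K154Q (-0.05 to -0.01).

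Named here are members with the smallest p in each direction, although none had an unadjusted p under 0.05. In K154R against WT under vehicle they were RPS27L (0.20, SE 0.14) and RPL39 (0.20, SE 0.15) among the higher genes, and RPL3 (-0.05, SE 0.14) among the few lower ones. In K154Q against WT under vehicle RPL39 (0.14, SE 0.15) and RPL26 (0.10, SE 0.13) were among the higher genes and RPL22 (-0.03, SE 0.08) among the lower. RPL39 lines the exit tunnel of the large subunit.

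Under dex, K154R against WT gave RPLP2 (0.13, SE 0.13), RPL18 (0.14, SE 0.14), RPL36A (-0.24, SE 0.23) and RPS25 (-0.03, SE 0.12). K154Q against WT gave RPL4 (0.08, SE 0.14), RPS21 (-0.08, SE 0.13) and RPS27A (-0.07, SE 0.13). RPS27A is made as a fusion with ubiquitin. Each of these values had an edgeR adjusted p of 1.0, and none had an unadjusted p under 0.05 by edgeR.

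The difference of the dex responses between genotypes was tested itself. Its median over the members was -0.01 when the WT response was taken from the K154R response, -0.03 when it was taken from the K154Q response, and -0.01 between the 2 mutants (K154Q minus K154R). Of the 77 genes 45, 57 and 49 were negative in that order, against 47.8%, 47.1% and 49.1% of all genes. In each, 0 members and 0% of all genes were called by edgeR, DESeq2 called 0 members, and 0 members had an unadjusted p under 0.05, against 0.71%, 0.895% and 0.611% of all genes. RPL36A had -0.35 (SE 0.33) and RPS25 -0.14 (SE 0.17) for K154R minus WT. RPS21 had -0.14 (SE 0.18) and RPL34 -0.13 (SE 0.21) for K154Q minus WT. For K154Q minus K154R, RPLP1 had -0.09 (SE 0.18), RPL13 -0.10 (SE 0.22), RPL36A 0.19 (SE 0.33) and RPL30 0.08 (SE 0.19). These 8 values all had an edgeR adjusted p of 1.0. The medians changed sign without any of 6 single libraries for K154R minus WT (K154R dex replicate 1, K154R vehicle replicates 2 and 4, WT dex replicate 2, WT vehicle replicates 1 and 3), reaching 0.08. They did so without any of 3 for K154Q minus WT (K154Q dex replicate 1, K154Q vehicle replicate 4, WT dex replicate 2), reaching 0.03. For K154Q minus K154R it was any of 6 (K154Q dex replicate 1, K154Q vehicle replicates 3 and 4, K154R dex replicates 3 and 4, K154R vehicle replicate 1), reaching 0.09.

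Subunits and start types gave close values. The averaged dex response had a median of -0.08 in both the 31 small-subunit and the 46 large-subunit genes, and the difference of replicate 4 from replicate 1 had a median of 0.40 in both. The 52 genes with a tract within 5 bases of an annotated start had a median of 0.41 for replicate 4 minus replicate 1. The 10 without one there, which may still have a TOP start, had 0.38. Their averaged dex response had medians of -0.08 and -0.07. Genes with a snoRNA inside had a median of 0.41 for replicate 4 minus replicate 1 and those without had 0.38. None of these differences was tested.

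The stalk proteins and the laminin receptor gene were read one by one. RPLP0 averaged 1598 ± 242 CPM in K154R dex and 1671 ± 261 in K154R vehicle, 1562 ± 181 in K154Q dex and 1665 ± 253 in K154Q vehicle, and 1507 ± 148 in WT dex and 1654 ± 336 in WT vehicle (SD, n = 4 each). RPLP0 is often used as a constant gene in quantitative PCR, and it ranged here from 1289 to 2145 CPM over the 24 libraries. Its averaged dex response was -0.10 (SE 0.08), that of RPLP1 -0.07 (SE 0.07), of RPLP2 -0.06 (SE 0.07) and of RPSA -0.10 (SE 0.08). The edgeR adjusted p was 0.89 for RPLP0, 0.90 for RPLP1, 0.92 for RPLP2 and 0.89 for RPSA.

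Paralogues were set beside their partners. RPL22L1 averaged 31.8 CPM and RPL22 102, RPS27L 105 and RPS27 354, RPL26L1 22.3 and RPL26 114, and RPL7L1 153.98 and RPL7 687. RPL36AL averaged 112 CPM where RPL36A averaged 4.05. CPM is not divided by length, so these pairs describe counts and not molar levels. The averaged dex response was between -0.10 and -0.02 for all 10, with an edgeR adjusted p of at least 0.86.

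Lists of related genes likewise held no called gene for the averaged response, against 1.06% of all genes tested. The 7 ribosomal protein genes outside the pattern had a median of -0.06, the 18 other TOP mRNAs -0.06 and the 77 mitochondrial ribosomal protein genes -0.07. The 39 assembly genes had a median of -0.07 with 38 negative, against 52.3% of all genes tested. Whether their signs are independent of each other was not tested. They were led by MRTO4 (-0.12, SE 0.04, edgeR adjusted p = 0.38) and LTV1 (-0.13, SE 0.05, 0.48), which act in large- and small-subunit assembly. The 15 genes of RNA polymerase I had -0.05, led by UBTF (-0.09, SE 0.04, edgeR adjusted p = 0.54), its upstream binding factor, and POLR1H (-0.12, SE 0.07, 0.76). The 20 genes of the mTORC1 pathway and MYC had -0.02, led by DDIT4 (0.42, SE 0.12, edgeR adjusted p = 0.12), an inhibitor of mTORC1, and MXI1 (-0.14, SE 0.09, 0.84). The 6 genes of the 5S RNP and of ribosomal stress sensing had -0.05, led by RRS1 (-0.09, SE 0.04, edgeR adjusted p = 0.52). Among mitochondrial ribosomal protein genes, MRPS25 had 0.23 (SE 0.07, edgeR adjusted p = 0.11).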

How the data were processed

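The authors deposited raw read counts per gene. Tools named in the submitters' processing notes are bcl2fastq 2.20.0.422, cutadapt 3.7, STAR 2.7.6a, GRCh38.p13 and featureCounts 2.0.3. How strand and multiple matches were treated is not stated there, so counts of genes with near-identical copies or overlaps are uncertain. Per the labels, 300 ng of RNA (integrity number 8.6 or more) entered stranded poly(A) libraries.

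Groups came from the sample titles. Counts were fitted in edgeR 4.0.16 (R 4.3.3) with filterByExpr, TMM and a quasi-likelihood model of 1 mean per group over all 24 libraries, adjusted by Benjamini-Hochberg over 16196 genes and called under 0.05. SE was worked back from the F statistic. Replicates differed by more than sampling noise (chi-square per degree of freedom at least 12.6). Log2 CPM used a prior count of 2. Lengths, biotypes and overlaps came from GENCODE v29.

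Replicate numbers were taken to pair libraries where every same-number pair of group deviations correlated above 0.1: the K154R response (lowest r 0.26), the K154Q response (0.38), their difference (0.18), and K154R (0.31) and K154Q (0.31) against WT in vehicle. For the other contrasts they were not. Fold changes, SE and p for dex and genotype still came from the fit without the replicate block in every contrast, so their SE ignore the pairing. The block was run as an alternative for all contrasts alike.

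Alternatives were RLE and upper-quartile factors, TMM without the member genes, no filter, DESeq2 1.42.0, the replicate block, the compared libraries alone, and leaving out each library. Named members have the smallest p in each contrast (4 per direction for responses, 2 otherwise), the extreme levels or the largest spread, or are stalk genes or paralogues; some are not reported here. Members and lists were chosen with earlier results of these data known.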

Additional observations from a re-analysis of the deposited data

Results flagged for a closer look

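Within groups of 4 libraries, the gap from the extreme library to its nearest neighbour was set against the whole range, for the ribosomal protein share, the member median and 24 named genes. Of 156 such groups, 11 were flagged, which is not far from the share of about 1 in 20 that chance flags. WT vehicle replicate 4 was the far library in 7 of them, all above the other 3: RPL8 at 1444 CPM, RPLP2 at 671, RPLP1 at 1177, RPL13 at 1301, RPL18 at 713, RPL28 at 673 and RPL3 at 2261 CPM. These 7 vary together and are not separate observations. In that library the mitochondrial genome took 7.61% of the counts, the lowest of the 24; its part in the result was not tested.

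The other 4 were RPLP2 at 466 CPM and RPLP1 at 824 CPM in WT dex replicate 1, RPL22 at 92.8 CPM in K154R vehicle replicate 1, all below the other 3 libraries of their group, and RPL39 at 22.6 CPM in K154Q vehicle replicate 4, above them.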

How the results depend on the processing

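No member was called in any of the 11 contrasts under any alternative run. Without a library each, the member medians ran from -0.12 to 0.03 for the response in WT, -0.19 to 0.02 in K154R, -0.16 to -0.02 in K154Q and -0.11 to -0.04 on average. The differences of responses ran from -0.13 to 0.08 (K154R minus WT), -0.13 to 0.03 (K154Q minus WT) and -0.12 to 0.09 (K154Q minus K154R). Against WT, K154R ran from -0.01 to 0.18 in vehicle and -0.03 to 0.15 in dex, and K154Q from -0.03 to 0.14 in vehicle and -0.05 to 0.08 in dex. The median of all genes moved by under 0.1 with each scaling.

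For all genes, the fit with the replicate block called 128 in place of 26 for WT and 685 in place of 172 on average. No filter called 78, 109, 72 and 325 in WT, K154R, K154Q and on average, and DESeq2 called 55, 77, 47 and 256, against 26, 50, 21 and 172. The compared libraries alone called 16 in WT, 24 in K154R and 12 in K154Q. Against WT, where 0 genes were called without it, the block called 4 (K154R) and 4 (K154Q) in vehicle and 2 and 5 in dex, and no filter called 15, 14, 8 and 18 in that order; DESeq2 and the compared libraries alone each called 1 for K154Q in dex. With the block, 12 of 77 members had an unadjusted p under 0.05 for the averaged response, against 16.9% of all genes, and 2 did for K154R against WT in vehicle, against 5.51%. The paired fit changed no member's call. The test over replicate numbers called 75 or 76 members under each of 28 alternatives, all chosen after the data were seen.

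Leaving out the mitochondrial genome's genes raised the share in every group: 5.27% in K154R dex and 5.56% in K154R vehicle, 5.21% in K154Q dex and 5.59% in K154Q vehicle, and 5.09% in WT dex and 5.34% in WT vehicle. Dividing by the gene model length in the deposited table put the median level at 161 CPM per kb. In both cases the denominator itself changed.

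The medians and named values that changed sign did so without 1 library each; the cause was not tested. For the WT response the named values ran from -0.19 to 0.012 (RPL8), -0.18 to 0.020 (RPL28), -0.17 to 0.017 (RPL3), -0.014 to 0.12 (RPS21), -0.053 to 0.087 (RPS25) and -0.024 to 0.12 (RPL39). For the K154R response they ran from -0.25 to 0.0085 (RPS27L) and -0.22 to 0.013 (RPS25). For K154Q minus K154R, RPLP1 ran from -0.18 to 0.0043, RPL13 from -0.23 to 0.0025 and RPL30 from -0.067 to 0.19. Against WT, RPS25 ran from -0.094 to 0.061 (K154R in dex), RPL3 from -0.11 to 0.095 (K154R in vehicle) and RPL22 from -0.073 to 0.012 (K154Q in vehicle).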
